A study of Oryctolagus cuniculus with 54 samples.

Results

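The 150 genes described here are the rabbit lung genes that stood furthest above their pseudoglandular level by day 28 of gestation and were at a similar level at day 42 after conception, with the days between left free. They were selected on measured values from 29587 listed genes. Each group value was the mean of log2(CPM+1) within a sequencing run, where CPM is a count divided by the library's total count and multiplied by 1000000. A gene qualified when F29 and F25 of run 1 lay within 0.5 of each other, T42 and F28 of run 3 lay within 0.5 of each other, and F28 of run 3 was at least 2.6. These conditions left 4868 genes, of which the 150 with the largest excess of F28 over the higher of F20 and F23 in run 3 were taken. The rise from F20 and F23 to F28, the small differences between F25 and F29 and between F28 and T42, and the level at F28 were therefore set by the choice and are given without a test.

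The study followed lungs of New Zealand White rabbits by 3′ mRNA sequencing, with 54 libraries from 45 animals in 3 runs. Fetuses delivered by C-section gave the groups F20 and F23 (4 animals each, pseudoglandular phase), F25 and F27 (3 each, canalicular) and F28 and F29 (3 each, saccular), numbered by the day after conception. Pups born naturally at day 31 and left with their mothers gave T31 (6 animals, day of birth), T35 (3), T37 (4) and T42 (3), which fall in the alveolar phase. Preterm pups were delivered by C-section at day 28, placed in incubators in 21% oxygen, fed milk replacer and sampled after 1 h (P0), 3 days (P3) or 7 days (P7), with 3 animals each. The labels name no drug or genetic change in any group. Each lung of a time point came from a different mother, and the labels name no mother, so litter could not be separated from animal. Preterm pups differed from term pups in delivery, housing and feed as well as in age. Run 1 held F25 to T35, run 2 held F28, T35 and the preterm groups, and run 3 held F20, F23, T37 and T42 with a few animals of F25, F28, T31, T35 and P7. Libraries held 5771693 to 8073755 counts.

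Between the pseudoglandular and the saccular phase the lung changes from a gland-like tree of branching tubes to a gas-exchange surface. In the canalicular phase the epithelium at the tips of the tree thins, the first alveolar epithelial cells appear and capillaries come to lie next to them, and in the saccular phase the airspaces widen and surfactant is made. Genes that come on in this window and stay on can, as general background, include those of cell types that the mature lung keeps. The deposited table lists these genes by Ensembl identifier and does not pair them with names, so no member could be assigned a product, a cell type or a pathway here, and the tissue could not be checked against markers. Members are given by their rank, from 1 for the largest rise to 150, and 4 of them also by identifier. In whole lung tissue, more cells of a type and more RNA per cell cannot be told apart.

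The genes as a group took 1.11% ± 0.07 of all counts at F20 (SD, n = 4 animals) and 1.57% ± 0.08 at F23 (n = 4) in run 3. They took 2.51% in the only F25 library of that run and 3.35% ± 0.004 at F28 (n = 2). The F20 and F23 libraries did not overlap in this share, and neither did F23 and F28, which follows from the choice for the step to F28. After birth at term the share in the same run was 2.71% ± 0.09 at T31 (n = 3), 3.27% ± 0.03 at T35 (n = 2), 3.02% ± 0.17 at T37 (n = 4) and 3.28% ± 0.23 at T42 (n = 3). In the single P7 library of the run it was 2.84%. T31 thus had the lowest mean of the term groups in run 3, with all 3 libraries below both F28 libraries and the highest of them level with the lowest T37 library (2.79% each).

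**Figure D1:**
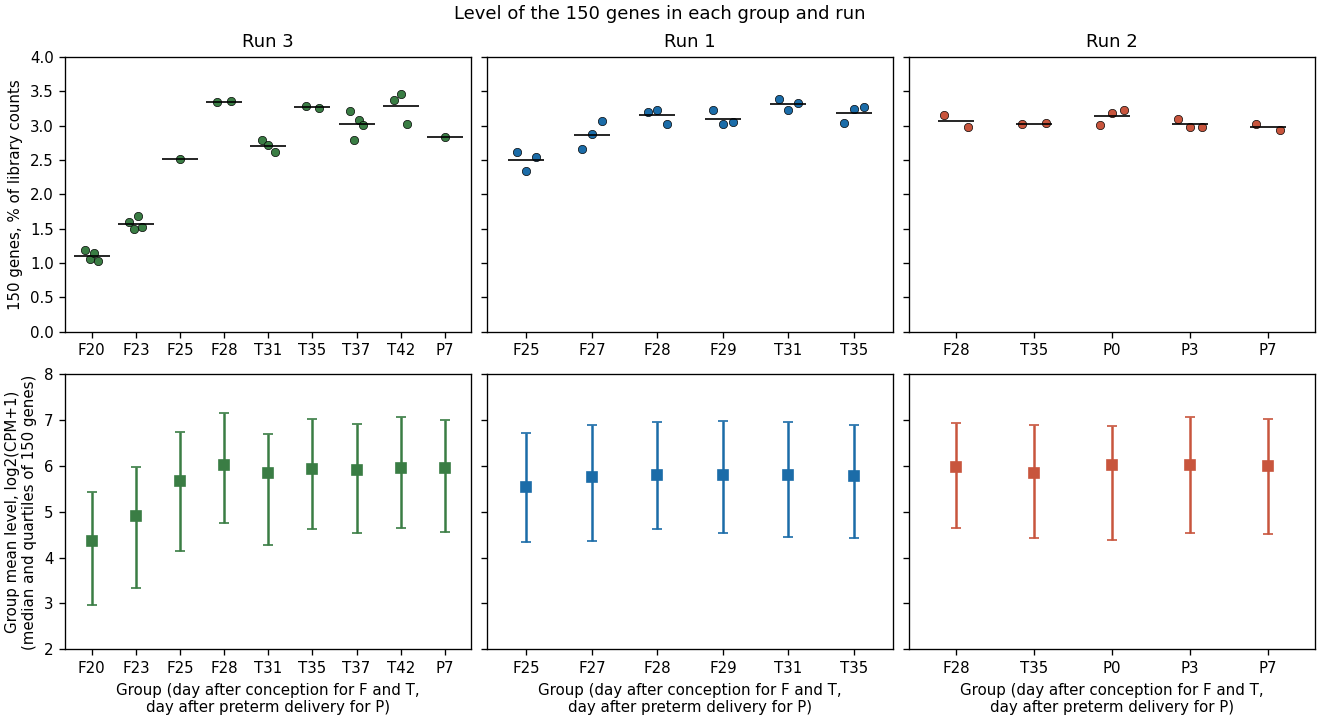
Share of library counts taken by the 150 genes (upper row, points are libraries and bars are group means, in percent) and group means of log2(CPM+1) (lower row, median of the 150 genes with quartiles) for each run and group. The share was 1.11% at F20 and 3.35% at F28 in run 3, and lay near 3% in every group of run 2.

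In run 1, which used other animals for T31, the share was 2.5% ± 0.14 at F25, 2.87% ± 0.20 at F27, 3.15% ± 0.11 at F28 and 3.10% ± 0.11 at F29 (SD, n = 3 animals each). It was 3.32% ± 0.08 at T31 and 3.19% ± 0.13 at T35. All 3 F25 libraries lay below all libraries of the later groups of run 1, from 2.34% to 2.62% against a lowest value of 2.66% at F27. T31 had the highest mean of all groups in run 1 and the lowest of the term groups in run 3, and no T31 animal was sequenced in both. In run 2 the preterm groups took 3.14% ± 0.11 (P0, n = 3), 3.02% ± 0.06 (P3, n = 3) and 2.98% ± 0.06 (P7, n = 2), beside 3.07% ± 0.13 at F28 and 3.03% ± 0.01 at T35 (n = 2 each).

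A few genes supplied most of these counts. The 10 with the most counts at F28 in run 3 held 65.7% of the members' counts, and 3 of them, ranked 114, 80 and 138, held 14.1%, 13.7% and 11.4%. For the member ranked 114, the F20 libraries held 1414, 1477, 1606 and 1943 CPM, the F23 libraries 2156 to 2535 CPM, and the F25 library of run 3 held 3029 CPM. Its F28 libraries in run 3 held 4561 and 4866 CPM, and later term libraries of that run ranged from 3674 CPM at T31 to 5722 CPM at T42. F20, F23, F25 and F28 did not overlap for this gene, and T31 to T42 stayed above every F23 library. The preterm libraries of run 2 lay between 4082 and 5623 CPM, a range that took in both F28 libraries of that run.

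The size of the rise was modest for most members. The excess of F28 over the higher of F20 and F23 had a median of 1.12 on the log2(CPM+1) scale, which is 2.17-fold in CPM+1, and ran from 0.89 to 2.62. It was above 1 in 111 genes and above 2 in 5. At the limit, the last 3 members had 0.8985, 0.8975 and 0.8887, and the next 3 genes had 0.8863, 0.8832 and 0.8827, so the limit separates no distinct group. At least 10 counts were present in every library for 133 of the 150, and no member was at 0 counts in any library.

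The largest rise belonged to ENSOCUG00000004024. Its F20 libraries held 1.64, 2.49, 3.96 and 4.27 CPM, its F23 libraries 6.71, 14.1, 15.6 and 21.4 CPM, the F25 library of run 3 held 59.7 CPM, and the F28 libraries 74.6 and 103 CPM. Each of these steps was without overlap. In the later groups of run 3 it held 55.6 to 110 CPM at T31, 104 CPM in both T35 libraries, 42.5 to 85 CPM at T37 and 55.1 to 79.3 CPM at T42. In run 1 the same gene was lower in each group that both runs hold, with 15.9 to 29.1 CPM at F25 and 32.4 to 50.1 CPM at F28. F28 animal 2, sequenced in all 3 runs, held 50.1 CPM in run 1, 111 CPM in run 2 and 103 CPM in run 3. Levels are therefore compared within a run only.

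The same animal sequenced in runs 1 and 3 gave such shifts for other members too, about as often as for other genes. In the 5 animals with libraries in both, run 3 minus run 1 had a median over the members of 0.26 (F25 animal 13), 0.19 and 0.19 (F28 animals 2 and 7), and 0.10 and 0.09 (T35 animals 6 and 11), in log2(CPM+1). Between 21 and 33 of the 150 genes (14% to 22%) were more than 1 apart in the same animal, against 13.7% to 22.1% of the 4868 genes. Over the 4868 genes that met the 3 conditions, the medians of these differences ran from -0.05 to -0.02. A value of run 1 and a value of run 3 thus share no scale for single genes.

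The heat map of the 150 genes shows the course in every library relative to F28 of the same run. F20 libraries are the darkest, F23 libraries are lighter, and the F25 column of run 3 lies between F23 and F28 for most genes.

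**Figure D2:**
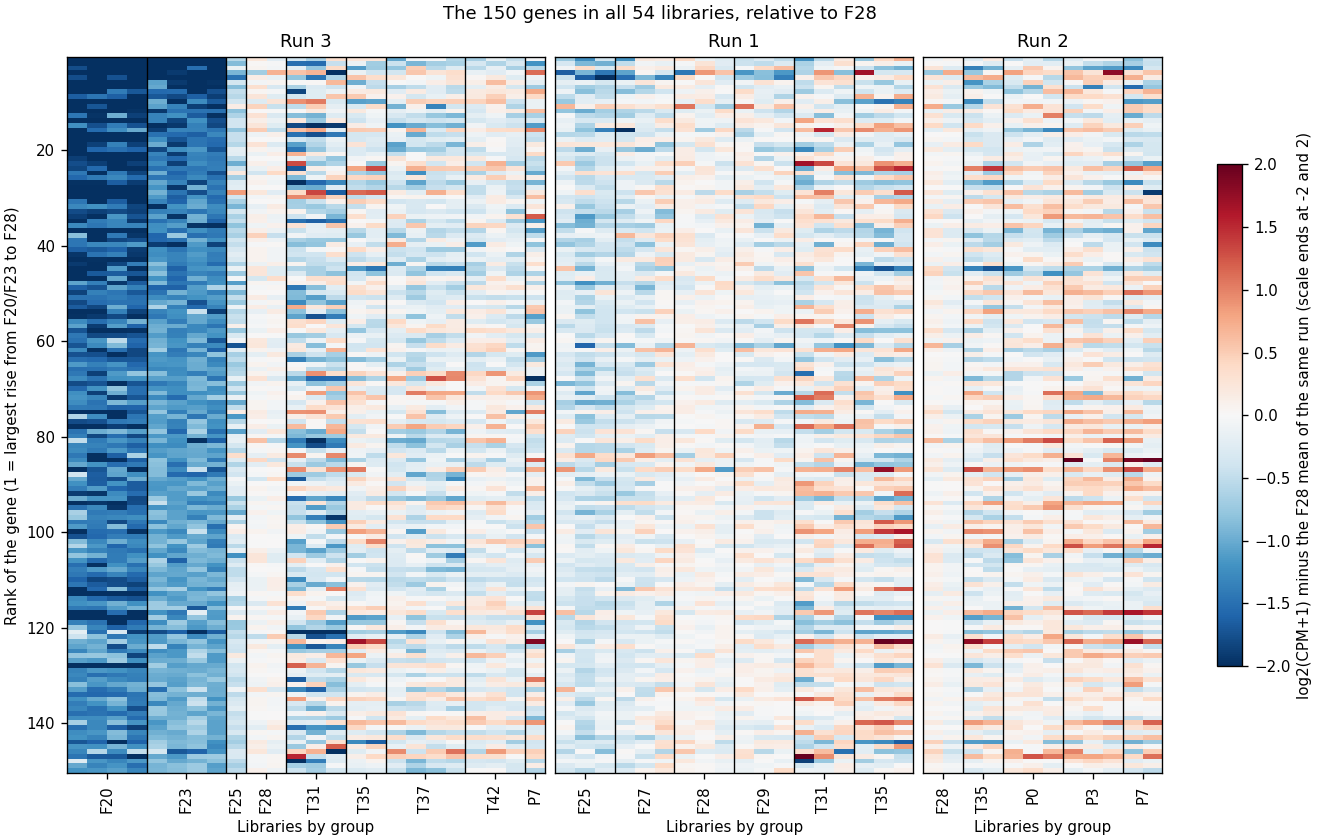
The 150 genes (rows, by rank) in all 54 libraries (columns, by group within run), as log2(CPM+1) minus the mean of the F28 libraries of the same run, with colours ending at -2 and 2. Blue F20 and F23 columns give way to near-white columns from F28 on, with scattered departures such as those in the T31 columns of run 3.

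The early step between F20 and F23 was small and uneven. F23 was above F20 in 136 of the 150 genes and F20 was higher in 14. The median difference was 0.37 on the log2(CPM+1) scale, and it exceeded 0.5 in 53 genes and 1 in 17. All 4 F23 libraries lay above all 4 F20 libraries in 58 genes, and the libraries overlapped in the other 92. In the 4868 genes that met the 3 conditions, which include the members, such a separation upward was present in 10.6%, and the median difference was 0.02.

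How far the rise had gone by day 25 is described by F25 animal 13, whose run 3 library was not used in the choice. The run 1 library of the same animal was used, in the condition that held F25 within 0.5 of F29. The animal is thus not outside the choice. Its single run 3 library lay above all 8 F20 and F23 libraries in 134 of 150 genes (89.3%, against 20.5% of the 4868 genes). It lay below both F28 libraries in 131 (87.3%, against 39.4% of the 4868 genes), and both held in 115 (76.7%, against 7.77%). F28, F20 and F23 of run 3 are the values that ranked the members, so F28 was selected to be high and F20 and F23 to be low, and a library between them is in part set by the choice. It had covered a median of 62.4% of the distance from the higher of F20 and F23 to F28 (quartiles 47.3% and 79.5%, range -46.7% to 160.9%), and at least 50% in 105 genes. It had reached F28 within 0.5 in 88 genes (58.7%), against 88.9% of the 4868 genes that met the conditions. It was more than 1 below F28 in 8 genes and at or beyond the F28 level in 10. In this run the F25 library thus lay between the selected levels for most of these genes, some way below F28, which is a description and no test of when the rise ended. With 1 animal at F25 there is no replicate check.

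Run 1 is no independent check of this order, since the choice used its F25 and F29 libraries and its F28 animals 2 and 7 also gave the run 3 libraries that ranked the members. F27 minus F25 had a median of 0.19 and was above 0 in 122 of 150 genes. F28 minus F25 had a median of 0.31 and was above 0 in 136. F29 minus F25, which the choice held within 0.5, had a median of 0.29 and was above 0 in 133, while the 4868 genes had a median of -0.10. F29 minus F28 had a median of -0.04 and was above 0 in 61. The choice thus allowed members with F25 slightly below F29, and most of them had such a difference.

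**Figure D3:**
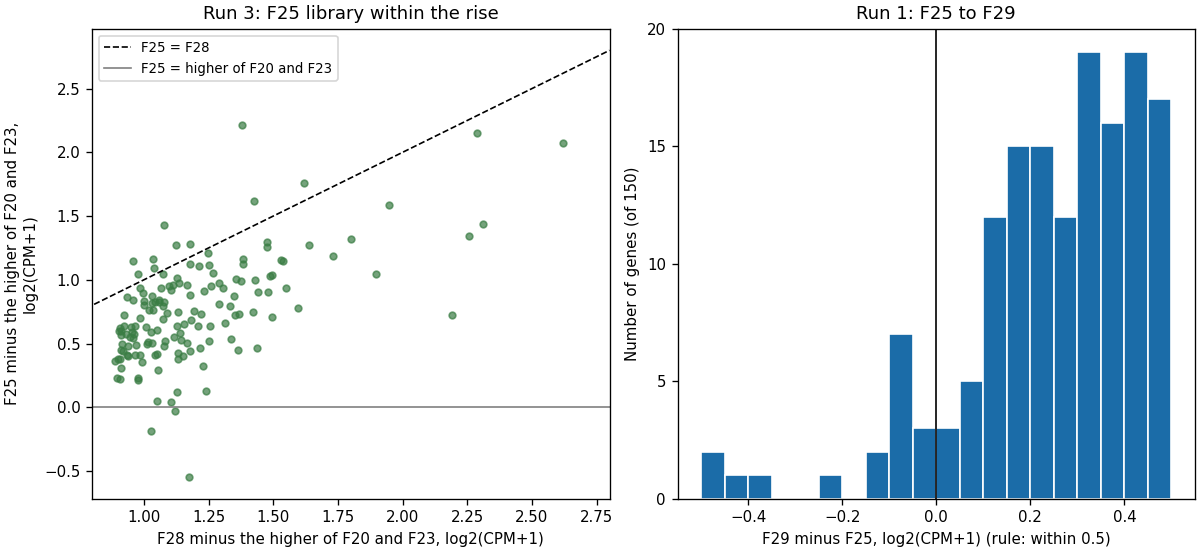
Left, for each of the 150 genes in run 3, the distance of the F25 library (1 animal) and of F28 from the higher of F20 and F23, in log2(CPM+1), with lines where F25 equals F28 or equals the pseudoglandular level. Right, the number of genes by their F29 minus F25 difference in run 1, where the median was 0.29 and 133 of 150 were above 0.

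The members also differed in how much of the rise was present by F25. ENSOCUG00000032312, ranked 3, was at 15.1 CPM in the F25 library of run 3, close to its F28 libraries at 16.1 and 17.4 CPM, with F20 at 0.956 to 4.20 CPM and F23 at 1.79 to 5.22 CPM. ENSOCUG00000006482, ranked 16, was at 29.2 CPM at F25, just above its highest F20 library (24.9 CPM) and F23 library (19.8 CPM), and its F28 libraries lay at 35.8 and 73.2 CPM. ENSOCUG00000004635, ranked 10, was at 13.5 CPM at F25, between F23 (2.02 to 8.54 CPM) and F28 (14.7 and 21.4 CPM), with all F20 libraries at 0.413 to 1.23 CPM. The first of these was near its F28 level at F25. The second lay between its pseudoglandular libraries and its F28 libraries, which were themselves far apart.

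After birth, T42 was held near F28 by the choice, but the groups in between were not. In run 3, T31, T35 and T37 all lay within 0.5 of F28 in 68 of the 150 genes (45.3%) and within 1 in 124 (82.7%), against 64.5% and 96.0% of the 4868 genes. Because F28 of run 3 ranked the members, these differences start from a value selected to be high. T31 minus F28 had a median of -0.32, with 56 genes more than 0.5 below F28 and 19 more than 1 below. The 4868 genes had a median of -0.10, with 875 and 145 of them that far below. T35 minus F28 had a median of -0.09 and T37 minus F28 one of -0.23, against -0.12 and 0.0025 in the 4868 genes. T31 was at or below the higher of F20 and F23 in 16 genes, T35 in 3 and T37 in 0. After TMM scaling, which corrects for the composition of a library, T31 minus F28 had a median of -0.24 and T37 minus F28 one of -0.29, while T35 minus F28 changed sign to 0.03. In run 1, with other T31 animals, T31 minus F29 had a median of 0.08 over the members and 0.03 over the 4868 genes. There, 7 members were more than 0.5 below F29, a group that the choice used.

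The spread between animals was also largest at T31. The median SD over the members was 0.35 between the 3 T31 animals of run 3 and 0.28 between those of run 1, against 0.10 to 0.26 in the other groups. The 4868 genes that met the conditions had their highest values in the same groups, 0.29 and 0.22. The member ranked 5 held 2.53, 4.62 and 5.45 CPM in the T31 libraries of run 3 after 7.85 and 9.76 CPM at F28, and 11.5 and 13.6 CPM at T35. For that gene the T31 libraries of run 3 lay between F23 and F28, without overlap with either. In run 1 its T31 libraries held 6.82 to 9.56 CPM and its F29 libraries 1.82 to 3.38 CPM, so T31 lay above F29 there.

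For libraries that the choice did not use, groups of a run were compared by the quasi-likelihood test of edgeR, with p-values adjusted by the Benjamini-Hochberg method over all genes tested. Some of the animals also gave a library that the choice used, such as F28 animal 2 of run 2. A gene was called at a fold change over 2 with an adjusted p of at most 0.05. All 150 members passed the filter on low counts in each comparison. The genes tested also include many of lower level than the members, which had a floor at F28. Members were also chosen for a rise to F28 and for a T42 level near F28, conditions that the genes tested do not carry. Against F27, higher calls after birth and a lack of lower calls are thus in part set by the choice. The first comparisons ask how the day of birth and 4 days of life at term differ from the canalicular F27 in run 1, and both share the F27 animals.

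At T31, 9 members were called higher than at F27 (6.0%, against 2.88% of the 14600 genes tested) and 0 lower (against 2.71%). No member was called lower by DESeq2 or limma-voom either, and 6 members had an unadjusted p under 0.05 in that direction. In either direction, 49 members had such a p, against 3682 of the 14600 genes tested. By adjusted p alone, 21 members were higher (14%, against 5.17%) and 2 were lower (1.33%, against 5.01%). The members had a median log2 fold change of 0.21, beside -0.01 over all genes, and 109 of 150 were above 0. Libraries of the groups overlapped for the called members ranked 23 and 147. The called members beside these were ranked 5, 16, 72, 78, 92, 123 and 135, with fold changes of 2.09 to 4.08.

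At T35, 13 members were called higher than at F27 (8.67%, against 4.64% of all genes tested) and 3 lower (2.0%, against 2.94%). By adjusted p alone, 32 were higher (21.3%, against 8.02%) and 11 lower (7.33%, against 7.01%). The median log2 fold change was 0.27, beside -0.03 over all genes. On the unscaled CPM values the median over all genes tested was -0.13 in this comparison and that of the members 0.14, so a positive median of the members did not depend on the scaling. The libraries of the groups did not overlap in the 16 called members. A call already asks for a fold change over 2, so this adds no support, and the share over all genes was not counted.

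ENSOCUG00000006482 was among the members with the largest change in both. Its F27 libraries held 4.44, 27.7 and 31.5 CPM, its T31 libraries 56.6, 60.2 and 113 CPM and its T35 libraries 64.1, 72.6 and 75.7 CPM. The log2 fold change was 1.92 ± 0.48 (SE) at T31 with an adjusted p of 0.0179 and 1.88 ± 0.48 at T35 with an adjusted p of 0.0145 (edgeR). The F27 library of animal 1 was far below the other 2 for this gene, and the T31 libraries still lay above all of them. The call at T31 was lost without T31 animal 10. The fetal libraries of run 1 held 4.44 to 51.9 CPM, all of them below every T31 and T35 library of that run. In run 2, F28 held 67.6 and 91.3 CPM and T35 70.0 and 73.5 CPM, so these groups overlapped. In run 3, F28 at 35.8 and 73.2 CPM overlapped T31 at 44.1 to 88.2 CPM. T35 of run 3, at 73.5 and 73.8 CPM, lay just above F28.

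The member ranked 123 had the lowest adjusted p at T35. Its F27 libraries held 174, 198 and 212 CPM, its T31 libraries 356, 390 and 480 CPM and its T35 libraries 353, 800 and 886 CPM. The log2 fold change at T35 was 1.94 ± 0.25 with an adjusted p of 0.000128 (edgeR), and that at T31 was 1.13 ± 0.25 with an adjusted p of 0.00775. The call at T31 was lost in the fit over all runs with the run as a term. The T35 libraries of run 3 are those of animals 6 and 11 of run 1 sequenced again, so they are no second set of animals. In run 3 the gene was at 172 and 187 CPM at F28, 451 and 575 CPM at T35, 120 to 216 CPM at T37 and 169 to 220 CPM at T42. T35 thus stood above F28, T37 and T42 in that run, and T42 lay near F28, as the choice demanded. The member ranked 100 was also highest at T35, with 144.7 to 253 CPM at T35 against 81.9 to 112 CPM at F27 in run 1, and 110 and 121 CPM at T35 against 64.2 to 75.0 CPM at T42 in run 3.

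Of the 3 members called lower at T35, ENSOCUG00000004635 had the lowest adjusted p. Its F27 libraries held 49.4, 49.8 and 51 CPM, its T31 libraries 28.4 to 55.8 CPM and its T35 libraries 17.7, 19.8 and 23.8 CPM. It fell by 1.16 ± 0.23 on the log2 scale at T35, with an adjusted p of 0.00266 (edgeR). In run 3 the libraries of the same T35 animals 6 and 11, at 7.8 and 8.0 CPM, were below both F28 libraries, and T37 (15.3 to 25.5 CPM) and T42 (13 to 27.4 CPM) were above T35. The member ranked 144 was also lower at T35, with 24.1, 31.5 and 34.1 CPM against 60.1, 66.3 and 96.0 CPM at F27, a call that was lost without F27 animal 11 or T35 animal 11. In run 3 the libraries of these T35 animals held 17.6 and 23.0 CPM and its T42 libraries 34.7 to 48.9 CPM. The comparison of day 28 with day 42 alone does not show these departures at T35, in either direction.

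**Figure D4:**
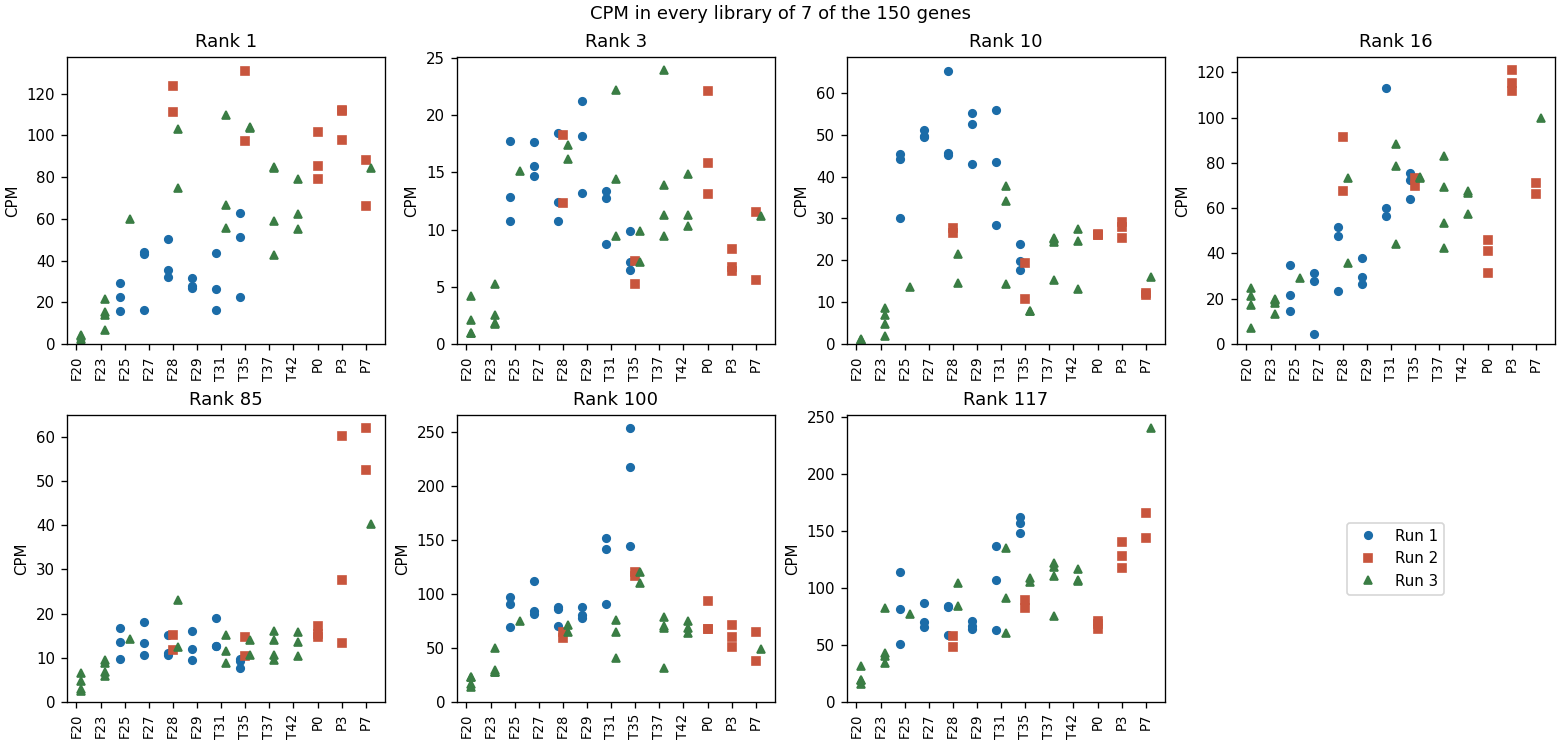
CPM in every library for the member ranked 1 and those called in a preterm comparison (ranks 3, 10, 16, 85, 100 and 117), by group, with run 1 as circles, run 2 as squares and run 3 as triangles. Rank 10 is low and rank 100 high in the T35 libraries of runs 1 and 3, and ranks 16 and 117 are higher at P3 than at P0.

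T37 against T31 asks what changed in the first 6 days at term, with 4 and 3 animals in run 3. Of the members, 4 were called higher (2.67%, against 3.85% of the 14817 genes tested) and 1 lower (0.667%, against 1.8%), which is near those shares at such small counts. By adjusted p alone, 20 were higher (13.3%, against 7.63%) and 13 lower (8.67%, against 6.81%). The median log2 fold change was -0.08 in the fit and 0.11 on the unscaled CPM values, on which the median of all genes tested was 0.12. The direction of the members as a group thus depended on the scaling. Without T31 animal 18 the count of called members was 11, and without T31 animal 4 it was 9. The shares over all genes in these fits are not given here, so the counts are not read against a background.

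The member ranked 68 had the largest fold change in this comparison. Its T31 libraries held 45.9, 46.7 and 69.5 CPM and its T37 libraries 83.8, 239, 272 and 336 CPM, with a log2 fold change of 1.95 ± 0.30 and an adjusted p of 0.00027 (edgeR). The F28 libraries of run 3 held 114 and 169 CPM and the T42 libraries 144 to 186 CPM, so T31 lay below and most of T37 above the levels that were matched. The member ranked 97 held 18.3, 27.4 and 41.5 CPM at T31 and 47.1, 89.4, 96.1 and 96.2 CPM at T37, with a log2 fold change of 1.36 ± 0.23 and an adjusted p of 0.000719. Its T31 libraries were within or below the range of F20 (28.0 to 42.4 CPM), while its F28 and T42 libraries held 64.3 to 75.6 CPM. In run 1 the T31 libraries of rank 97 held 90.3 to 142 CPM beside 129 to 185 CPM at F27, so the groups overlapped in that run.

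**Figure D5:**
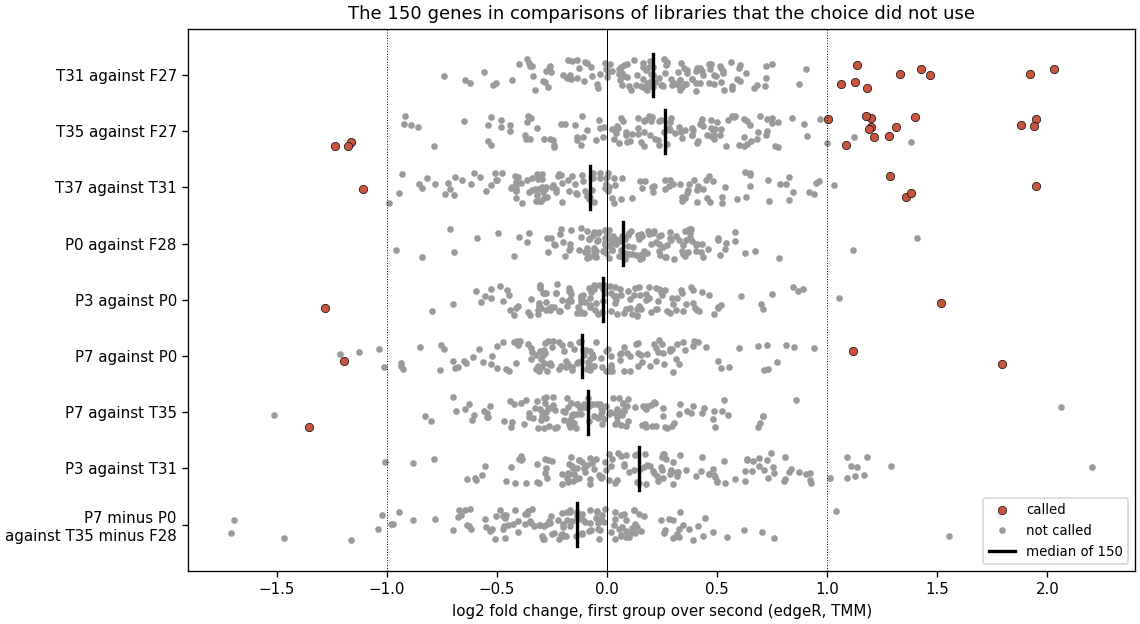
Log2 fold changes of the 150 genes (edgeR with TMM scaling) in the 9 comparisons, with called genes in red, the others in grey and the median as a black bar. Called genes are most frequent at T35 against F27 (16 of 150), and most genes lie within a fold change of 2 in every comparison.

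In preterm pups most members stayed near the F28 level. P0, P3 and P7 all lay within 0.5 of F28 in run 2 in 103 of the 150 genes (68.7%), against 84.4% of the 4868 genes. The median differences from F28 were 0.01 at P0, 0.06 at P3 and -0.03 at P7, in log2(CPM+1). One of the 2 F28 animals of run 2 also gave a run 3 library that the choice used. In the P7 library of run 3, 97 members (64.7%, against 85.6% of the 4868 genes) were within 0.5 of F28, 9 were more than 1 below it and 7 more than 1 above it.

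P0 against F28 asks what 1 h after preterm delivery changed. No member was called by edgeR (0 of 150, against 0.218% of the 13791 genes tested) or by limma-voom, and 1 was called by DESeq2. DESeq2 also called more genes than edgeR over all genes. An unadjusted p under 0.05 was present in 25 of the 150 members, against 1546 of the 13791 genes. The only difference that passed the adjusted p was that of ENSOCUG00000006482. Its F28 libraries held 67.6 and 91.3 CPM and its P0 libraries 31.5, 41.0 and 46.1 CPM, a log2 fold change of -0.96 ± 0.17 with an adjusted p of 0.0428 (edgeR), just short of a fold change of 2. The P0 libraries lay below both F28 libraries without overlap. F28 animal 2 held 67.6 CPM here, and 73.2 CPM in the run 3 library that the choice used. Animal 7, the other F28 animal of run 3, held 35.8 CPM there and was not sequenced in run 2. For this gene F28 was thus in part selected to be high.

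From P0 to P3, 2 members were called (against 2.52% of all genes tested). ENSOCUG00000006482 rose from the P0 values above to 112, 115 and 121 CPM at P3, with a log2 fold change of 1.52 ± 0.16 and an adjusted p of 0.000274 (edgeR). At P7 it held 66.1 and 71.2 CPM in run 2, beside 67.6 and 91.3 CPM at F28 and 70.0 and 73.5 CPM at T35. ENSOCUG00000032312 fell by 1.28 ± 0.29 on the log2 scale, from 13.1, 15.8 and 22.1 CPM at P0 to 6.36, 6.72 and 8.29 CPM at P3, with an adjusted p of 0.0248. That call was lost without P0 animal 3, P3 animal 2 or P3 animal 3. At T35 of run 2 this gene held 5.26 and 7.24 CPM, and at T35 of run 1 it held 6.50 to 9.89 CPM beside 14.6 to 17.6 CPM at F27.

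From P0 to P7, 3 members were called (against 4.26% of all genes tested), with the same P0 animals as in the comparison before. ENSOCUG00000004635 fell by 1.19 ± 0.21 on the log2 scale, from 26.0, 26.2 and 26.3 CPM at P0 to 11.8 and 12.1 CPM at P7, with an adjusted p of 0.00499 (edgeR). The call was lost without P7 animal 3. The gene was still at 25.3 to 29.1 CPM at P3, and T35 of the same run held 10.9 and 19.4 CPM. The member ranked 117 rose from 63.6, 68.7 and 71.2 CPM at P0 to 143 and 166 CPM at P7, with a log2 fold change of 1.12 ± 0.13 and an adjusted p of 0.000234. It was at 117 to 141 CPM at P3. The P7 library of run 3 held 240 CPM, a value not on the scale of run 2. The member ranked 85 held 14.7, 15.4 and 17.1 CPM at P0 and 52.4 and 62.0 CPM at P7, with a log2 fold change of 1.80 ± 0.42 and an adjusted p of 0.0231. Its P3 libraries were spread from 13.3 to 60.1 CPM, its call was lost in each fit that left out a P0 or P7 animal, and the P7 library of run 3 held 40.2 CPM beside 12.6 and 23.2 CPM at F28.

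P7 against T35 sets preterm and term pups of the same age after conception side by side, with 2 animals each in run 2. The member ranked 100 was the 1 called (against 0.493% of all genes tested). It held 37.6 and 64.8 CPM at P7 and 116 and 121 CPM at T35, a log2 fold change of -1.35 ± 0.22 with an adjusted p of 0.0264 (edgeR), and the call was lost without P7 animal 4, T35 animal 6 or T35 animal 11. In run 3, the P7 library held 49.0 CPM and the T35 libraries 110 and 121 CPM. The P7 animals were thus lower than T35 in both runs, while the T35 animals were the same ones sequenced again. The median log2 fold change of the members was -0.09 in the fit and 0.04 on unscaled CPM, on which all genes tested had a median of 0.11.

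P3 against T31 compares animals of the same age after conception that share no run, through a fit over 21 animals with the run as a term. No member was called by edgeR (against 0.0963% of the 14544 genes tested) or limma-voom, and 2 were called by DESeq2. DESeq2 also called more genes than edgeR over all genes, here and in the next comparison. An unadjusted p under 0.05 was present in 31 of the 150 members, against 1516 of the 14544 genes. The test of the difference between the preterm course (P7 minus P0) and the course at term (T35 minus F28) called no member by edgeR (against 0.138%) or limma-voom and 2 by DESeq2. In it, 25 members had an unadjusted p under 0.05, against 1833 of the 13791 genes tested. The member ranked 100 had a difference of -1.71 ± 0.30 on the log2 scale with an adjusted p of 0.056. ENSOCUG00000004635, which fell in the preterm course, had a difference of -0.47 ± 0.31 with an adjusted p of 0.546, so a difference from term was not shown for it.

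Over the 9 comparisons, 26 different members were called at least once (17.3%, against 16.6% of the 13334 genes tested in all 9) and 124 were not called in any.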

How the data were processed

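Right lung homogenate (whole lungs at F20 and F23 per the study's methods) was sequenced with QuantSeq 3′ libraries, read as single ends. The authors trimmed reads with BBduk, aligned them to OryCun2.0 with STAR and deposited whole-number counts per Ensembl gene from HTSeq-count. They also ran their own script to allow for reads past the annotated 3′ ends of protein-coding genes. Tool versions, and whether the deposited table includes those reads, are not given in the sources used here. A 3′ library gives about the same number of reads per transcript whatever its length, and counts lost to a poorly annotated 3′ end lower a gene's level. Whether such a loss was equal in all groups was not tested.

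The identifiers could not be matched to names (0 of 29587 matched the RefSeq table at hand), so the planned gene lists, cell markers and promoter motifs were not used here. The members and lists were chosen with earlier results of these data known. Libraries were assigned to groups, animals and runs from the labels. CPM was computed from column totals, with a pseudocount of 1. edgeR 4.0.16 (quasi-likelihood, TMM, at least 0.5 CPM in at least 3 fitted libraries) was fitted on all libraries of a run, or on 21 animals with a run term for P3 against T31. The scripts were tested on simulated data. Alternatives were DESeq2 1.42.0, limma-voom 3.58.1, other filters and scaling, a fit over all runs, a replicate block and leaving out each animal. P-values measure the spread between animals. Named members had a high rank, many counts or a call, as planned, and those shown in full were picked among them after their values were seen.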

Additional observations from a re-analysis of the deposited data

Results flagged for a closer look

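Among 159 sets of 4 libraries tested (members of high rank, many counts or a call, in F20, F23 and T37), 10 had a library whose gap to the nearest other exceeded the 95% critical value of Dixon's ratio (0.829 for 4 samples), where chance alone flags about 1 in 20 sets. All values are CPM of run 3. In F20, animal 17 held 0.957 for the member ranked 11 (others 0.155 to 0.276). F20 animal 1 held 2.02 for the member ranked 20 (others 4.41 to 4.78) and 42.4 for the member ranked 97 (others 28.0 to 30.3). F20 animal 35 held 40.4 for the member ranked 98 (others 52.6 to 55.0). In F23, animal 6 held 25.3 for the member ranked 12 (others 34.8 to 35.3). F23 animal 23 held 2379 for the member ranked 80 (others 2034 to 2071) and 49.7 for the member ranked 100 (others 27.4 to 30.0). In T37, animal 12 held 15.3 for the member ranked 10 (others 24.5 to 25.5) and 4630 for the member ranked 138 (others 3851 to 3919). T37 animal 27 held 47.1 for the member ranked 97 (others 89.4 to 96.2).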

How the results depend on the processing

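No called member changed direction under any alternative run. The median log2 fold change of the members changed sign at T37 against T31 without T31 animal 18 (0.044), at P7 against T35 in the fit over all runs (0.045) and, near 0, at P3 against P0 (-0.066 to 0.0095 when animals were left out). In the fit over all runs with the run as a term, called members were 5 at T31 against F27, 9 at T35 against F27, 3 at T37 against T31 and 1 at P3 against P0. DESeq2 called 1 at P0 against F28, 5 at P7 against P0, 2 at P7 against T35, 2 at P3 against T31 and 2 for the difference between the preterm and term courses. Without a filter on low counts these were 1, 5, 3, 2 and 3. Under a minimum of 10 counts per library the last was 1. Leaving out 1 animal at a time gave 6 to 12 at T31 against F27, 12 to 20 at T35 against F27, 4 to 11 at T37 against T31, 0 to 1 at P0 against F28 (1 without P0 animal 1 or F28 animal 2), 1 to 3 at P3 against P0, 2 to 5 at P7 against P0 (5 without P7 animal 3), 0 to 1 at P7 against T35, 0 to 1 at P3 against T31 (1 without T31 animal 11) and 0 to 1 for the difference of courses (1 without P7 animal 3). A lone animal left in a group was assumed to vary like the others. The cause of these changes was not tested. Of 36 calls of single members, 12 stayed past the threshold under every alternative and 24 were lost under at least 1.

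Over all genes, called counts moved by more than 1.5 times under several settings. Under a minimum of 10 counts per library they were 535 at T31 against F27 (main 817), 647 at T35 against F27 (1106) and 488 at T37 against T31 (836), with fewer genes tested. Without a filter they were 156 at P0 against F28 (30), 574 at P3 against P0 (348), 249 at P7 against T35 (68), 109 at P3 against T31 (14) and 290 for the difference of courses (19). DESeq2 gave 97, 155, 118 and 166 for the same comparisons without P3 against P0. In the fit over all runs, T35 against F27 gave 687, P0 against F28 17, P3 against P0 176, P7 against T35 38 and the difference of courses 5. limma-voom gave 23 at P3 against T31. Without F27 animal 1 the counts were 457 at T31 and 679 at T35, and without P7 animal 4 P7 against P0 gave 384. Leaving out 1 animal gave 4 to 36 at P0 against F28, 6 to 34 at P7 against T35, 3 to 35 at P3 against T31 and 0 to 28 for the difference of courses.

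The deviations of same-numbered animals correlated at 0.09 and 0.14 (F27 with T35), 0.10 and 0.02 (P0 with P3) and 0.06 and 0.15 (P0 with P7). With 2 shared numbers each and no mother named in the labels, whether such animals share more than a number is not settled. With the replicate number as a block, called members were 16 at T35 against F27, 4 at P3 against P0 (220 over all genes) and 4 at P7 against P0. For the other comparisons no paired analysis was possible because the groups share fewer than 2 numbers in a run.

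The choice itself moved with 1 animal: 108 to 149 of the 150 members were kept when 1 animal was left out, the fewest without F28 animal 7. TMM-scaled values kept 118, a pseudocount of 0.5 kept 140 and no F28 floor kept 130. With 2 to 4 animals a group, and 1 at F25 of run 3, small departures from F28 could not be told from the spread between animals.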
